A study of Homo sapiens with 24 samples.

Results

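DNA methylation in mammals is written, kept and removed by a small set of enzymes, and the data on 8 of their genes are described here: the maintenance pair DNMT1 and UHRF1, the de novo methyltransferases DNMT3A and DNMT3B with their cofactor DNMT3L, and the dioxygenases TET1, TET2 and TET3. The members are a list of names, drawn up with earlier results of these data known; no threshold on a measured value entered the list. All 8 are among the 61544 genes listed for organoids, and 6 of them are among the 10221 genes listed for neural progenitor cells (NPCs). DNMT3A and TET3 were not analysed here in the NPCs.

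RNA was sequenced from cells grown from H9 (an established line of human embryonic stem cells) in 24 libraries. H9 cells received lentivirus with a scrambled short hairpin RNA (NC, genotype WT in the labels) or with 1 of the hairpins sh1 and sh4 against KDM2A, and were selected with puromycin at 1 µg/ml. They were then turned into NPCs (5 libraries each for NC, sh1 and sh4) or into cerebral organoids, which are aggregates that form neural tissue, at day 30 (3 libraries each). The virus went into the stem cells, and the labels give the same transduction and puromycin protocol for every library, NC included. The sources used here do not say whether the lines were clones or pools, nor whether replicate libraries are separate cultures. The p-values therefore reflect only how far these libraries scatter, and that scatter could be technical.

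As background, DNMT1 copies methylation of CpG dinucleotides onto the new DNA strand at replication, and UHRF1 brings it there by binding hemimethylated DNA and histone tails. DNMT3A and DNMT3B set methylation at unmethylated sites, helped by the catalytically inactive DNMT3L, and DNMT3B is abundant in pluripotent and early embryonic cells and declines as neural cells form. The TET enzymes oxidise 5-methylcytosine, which leads to its removal, and neural tissue is rich in the product 5-hydroxymethylcytosine. KDM2A, the hairpins' target, is a histone H3K36 demethylase that binds unmethylated CpG islands through a CXXC zinc finger, a domain type that DNMT1, TET1 and TET3 carry too.

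Levels are given in CPM (counts rescaled so that library sizes match), with the SD. In the NPCs CPM is relative to the listed genes, and that list is a selected one: 99.3% of its tested genes differed between sh1 and NC at an adjusted p under 0.05, and the highest unadjusted p was 0.148. NPC differences from NC therefore partly describe how genes came to be listed. Library totals, in units of 1e6 counts, lay between 12.7 and 20.2 in the NPC table and between 15.9 and 18.9 in the organoid table. KDM2A fell in the NPCs: its level was 186 ± 15.3 CPM for NC, 92.1 ± 4.15 for sh1 and 95.1 ± 4.21 for sh4 (log2 fold changes -1.02 and -0.97, adjusted p = 5.12e-12 and 7.36e-12, edgeR). In the organoids it stood at 100 ± 4.00 CPM in libraries labelled NC, 110 ± 6.97 in those labelled sh1 and 101 ± 4.89 in those labelled sh4 (log2 fold changes 0.14 and 0.01, adjusted p = 0.127 and 0.926, edgeR). With library size alone as the scale the organoid sh4 value was -0.27 (adjusted p = 0.00871, edgeR). For the organoids, then, no direction given below is backed by a measured loss of KDM2A.

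In the text, "rose" and "fell" stand for an adjusted p under 0.05, and "called" for a change of at least 2-fold as well. All changes are on the log2 scale, and each adjusted p below is from the quasi-likelihood test of edgeR, adjusted by Benjamini-Hochberg over all tested genes of a table, unless another test is named.

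The promoters of 5 members are shown. TET1, TET2 and TET3 form a family of dioxygenases, and DNMT1 and UHRF1 tracked each other in the organoids. All 7 tested members fell there in libraries labelled sh4, so that fall does not set the TET genes apart. With sh1 TET1 and TET3 fell and TET2 did not. The lines give the 250 bases before the RefSeq start (GRCh38.p14), 5′ to 3′, with each CpG in capitals. They lie at chr10:68560087-68560336 for TET1 (+ strand), chr4:105145625-105145874 for TET2 (+), chr2:73984660-73984909 for TET3 (+), chr19:10194954-10195203 for DNMT1 (- strand) and chr19:4909251-4909500 for UHRF1 (+).
TET1: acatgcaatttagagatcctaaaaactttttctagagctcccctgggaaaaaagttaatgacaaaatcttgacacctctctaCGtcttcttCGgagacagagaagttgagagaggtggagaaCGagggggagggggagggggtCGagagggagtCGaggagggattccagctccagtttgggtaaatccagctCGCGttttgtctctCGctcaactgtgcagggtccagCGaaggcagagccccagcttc
TET2: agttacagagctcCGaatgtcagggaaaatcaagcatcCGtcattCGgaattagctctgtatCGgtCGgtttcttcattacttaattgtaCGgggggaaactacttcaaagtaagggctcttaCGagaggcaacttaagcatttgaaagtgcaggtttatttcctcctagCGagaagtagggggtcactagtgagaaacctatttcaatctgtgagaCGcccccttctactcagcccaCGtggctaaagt
TET3: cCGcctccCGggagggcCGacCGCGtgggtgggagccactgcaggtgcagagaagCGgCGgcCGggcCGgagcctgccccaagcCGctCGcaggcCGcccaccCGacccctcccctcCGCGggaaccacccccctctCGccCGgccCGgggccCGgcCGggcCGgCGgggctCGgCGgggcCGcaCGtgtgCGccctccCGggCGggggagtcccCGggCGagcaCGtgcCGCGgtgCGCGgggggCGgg
DNMT1: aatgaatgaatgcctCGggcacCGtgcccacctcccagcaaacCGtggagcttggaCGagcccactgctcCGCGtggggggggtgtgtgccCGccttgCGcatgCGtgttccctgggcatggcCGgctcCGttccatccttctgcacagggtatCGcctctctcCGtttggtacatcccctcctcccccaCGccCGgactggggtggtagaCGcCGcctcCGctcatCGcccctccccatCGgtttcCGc
UHRF1: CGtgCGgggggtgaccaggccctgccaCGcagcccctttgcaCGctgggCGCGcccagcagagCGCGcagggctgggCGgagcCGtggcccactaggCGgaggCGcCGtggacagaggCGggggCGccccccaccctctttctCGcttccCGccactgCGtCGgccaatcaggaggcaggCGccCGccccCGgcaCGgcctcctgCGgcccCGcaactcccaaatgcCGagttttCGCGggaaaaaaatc

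The 5 promoters differ widely in CpG content. Over the table's full window of 300 bases, which adds 50 bases after the start, TET3 held 45 CpG, UHRF1 36, DNMT1 30, TET2 13 and TET1 10, and DNMT3A held 18. The median of all 35116 such windows was 14, and 3.5% of them held at least as many CpG as TET3, 12.7% as many as UHRF1, 22.4% as many as DNMT1, 51.7% as many as TET2 and 56.4% as many as TET1. So the windows used for the TET genes range from dense in CpG to near the median. The E2F core GCGGGAA, searched on both strands, occurred at 2 places in the UHRF1 window and 1 in the TET3 window, and 6.6% of all windows held it. The core GCGCCAA was found in no member's window and in 3.0% of all windows. The CCAAT box CCAAT was in the UHRF1 and DNMT3B windows (34.6% of all windows), the GC box GGGCGG in the UHRF1, TET2 and TET3 windows (45.0%), and the E-box CACGTG in the TET2 and TET3 windows (7.3%). Hits of different motifs may overlap, and a match is a description of letters only. The windows used for DNMT1 and UHRF1 lie 36333 and 6421 bases downstream of the 5′ end of the gene in GENCODE 29. The RefSeq starts used for TET1 and TET3 lie 319 and 1494 bases upstream of that end, so their windows do not reach it. Those for TET2 and DNMT3A coincide with it. For DNMT3B the window lies 17467 bases downstream, with 3 CpG, and it is not shown. DNMT3L is named only.

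In the organoids the largest change among the members was in DNMT3B, which was 6.62-fold lower in libraries labelled sh1 and 7.47-fold lower in those labelled sh4. TET1 and TET3 fell under both labels, further with sh4 than with sh1. TET2, DNMT3A, DNMT1 and UHRF1 fell with sh4, while with sh1 their log2 fold changes lay between -0.03 and 0.08 and did not pass the test. No tested member rose in edgeR, at an unadjusted p under 0.05 or in DESeq2. Of the 7 tested members 3 fell with sh1, beside 21.6% of all 19704 tested genes, and 1 of them, DNMT3B, was called, beside 7.92% called lower. With sh4 all 7 tested members fell, beside 33.4% of all genes, and 4 were called, beside 15.5% called lower. The median log2 fold change of the 7 was -0.03 with sh1 and -1.06 with sh4, against 0.019 and -0.006 over all genes. Both comparisons use the same 3 NC libraries.

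**Figure D1:**
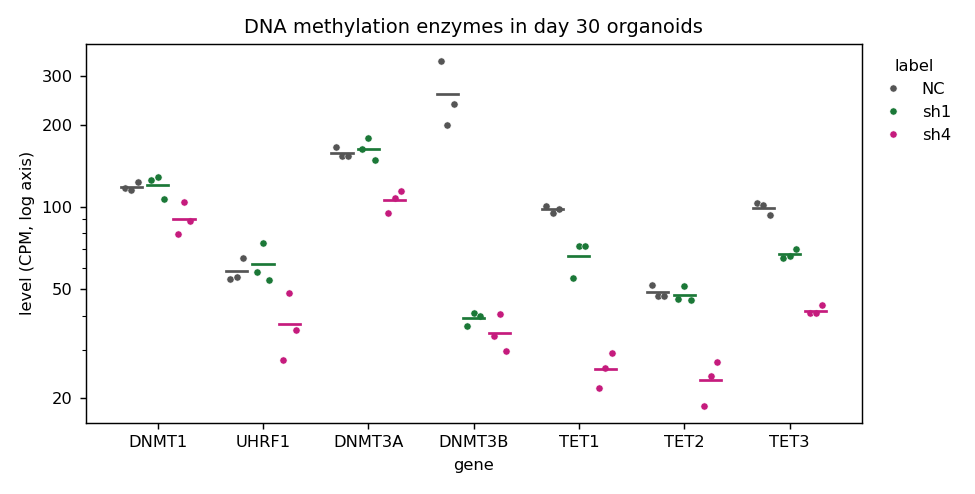
Level of 7 members in each day 30 organoid library (CPM, log axis), with NC, sh1 and sh4 as grey, green and magenta points and a bar at the group mean. DNMT3B is at 199 CPM or more in the 3 NC libraries and at 40.9 CPM or less in the 6 others, and the TET genes are lowest in the sh4 libraries; DNMT3L, with 5 counts in all, is not drawn.

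The maintenance genes are DNMT1 (ENSG00000130816, chr19:10133345-10231286, GENCODE 29 on GRCh38) and UHRF1 (ENSG00000276043, chr19:4903080-4962154). DNMT1 stood at 117, 115 and 123 CPM in the organoid libraries labelled NC, at 126, 129 and 107 in those labelled sh1, and at 79.5, 104 and 88.7 in those labelled sh4. Each sh4 library lay below each NC library, while NC and sh1 overlapped. DNMT1 changed by 0.03 with sh1 (SE 0.11, adjusted p = 0.843) and -0.38 with sh4 (SE 0.11, adjusted p = 0.00912). UHRF1 was at 54.7, 55.7 and 65.3 CPM with NC, at 57.8, 73.6 and 54.3 with sh1, and at 27.7, 48.5 and 35.4 with sh4. Its sh4 libraries again lay below all others, and they spread more than those of DNMT1. UHRF1 changed by 0.08 with sh1 (SE 0.19, adjusted p = 0.752) and by -0.65 with sh4 (SE 0.19, adjusted p = 0.0119). The sh1 values of both genes were so near 0 that their sign turned when a library was left out. Of 15 genes of DNA synthesis in S phase, when maintenance methylation takes place, 8 fell and 0 rose with sh4, and 1 fell and 0 rose with sh1. Of all genes 33.4% fell with sh4 and 21.6% with sh1. Their summed level was 773 to 943 CPM in NC libraries, 696 to 897 with sh1 and 579 to 736 with sh4, and their part in the DNMT1 and UHRF1 values was not tested. In bulk RNA, fewer cells of a type and less RNA per cell cannot be told apart.

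DNMT3A (ENSG00000119772, chr2:25227855-25342590) was the more even of the de novo enzymes. It stood at 165, 154 and 154 CPM with NC, at 163, 179 and 148 with sh1, and at 95.3, 108 and 114 with sh4. NC and sh1 overlapped, and all sh4 libraries were lower. DNMT3A changed by 0.05 with sh1 (SE 0.088, adjusted p = 0.659) and -0.58 with sh4 (SE 0.089, adjusted p = 0.000265).

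DNMT3B (ENSG00000088305, chr20:32762385-32809356) was at 341, 199 and 238 CPM in NC libraries, at 36.7, 40.9 and 39.8 in sh1 libraries, and at 33.7, 40.6 and 29.7 in sh4 libraries. NC replicate 1 was the highest, and the lowest NC library was still far above the highest sh1 or sh4 library. On the log2 scale DNMT3B changed by -2.73 with sh1 (SE 0.19, adjusted p = 7.46e-06) and -2.90 with sh4 (SE 0.19, adjusted p = 1.66e-06), and over the libraries left out in turn it stayed between -2.89 and -2.48 and between -3.07 and -2.66. Markers of pluripotent cells moved with it. All 11 genes of that list fell under both labels, beside 21.6% of all genes with sh1 and 33.4% with sh4. Their median log2 fold changes were -3.73 and -3.50. Their summed level was 921 to 1270 CPM in NC libraries, 151 to 177 in sh1 and 155 to 198 in sh4 libraries. POU5F1, which with NANOG defines pluripotent cells, was at 231 ± 67.0 CPM with NC, 0.475 ± 0.509 with sh1 and 0.680 ± 0.539 with sh4, and NANOG was at 16.0 ± 5.90, 0.0183 ± 0.0316 and 0.0392 ± 0.0679 CPM. Both have near-identical copies elsewhere, so their counts are uncertain. Libraries labelled NC thus held transcripts of pluripotent cells at day 30, and the part of these cells in the DNMT3B difference was not tested.

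DNMT3L (ENSG00000142182, chr21:44246339-44262216) gave 1, 3 and 1 counts in the NC libraries and 0 in each of the 6 others, and it did not pass the filter on low counts. No fold is given. A count of 0 over the 3 sh1 libraries allows a level of up to 0.0548 CPM, and over the 3 sh4 libraries up to 0.0611 CPM, from 3 counts per group and for counting error only. The NC level was 0.0913 ± 0.0595 CPM.

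TET1 (ENSG00000138336, chr10:68560656-68694482), the TET enzyme best known from stem cells, was at 101, 95.3 and 98.6 CPM with NC, at 55.1, 71.9 and 72.3 with sh1, and at 21.8, 25.7 and 29.2 with sh4. The groups formed 3 steps with no overlap. TET1 changed by -0.57 with sh1 (SE 0.12, adjusted p = 0.00428) and -1.94 with sh4 (SE 0.13, adjusted p = 1.58e-06). TET3 (ENSG00000187605, chr2:73986404-74108176), the TET enzyme also known from the zygote and from neurons, was at 103, 102 and 93.5 CPM with NC, at 65.2, 66.2 and 70.4 with sh1, and at 41.0, 40.8 and 43.7 with sh4. It showed the same order of groups, again without overlap and with little spread. TET3 changed by -0.57 with sh1 (SE 0.065, adjusted p = 0.000119) and by -1.25 with sh4 (SE 0.066, adjusted p = 5.8e-07).

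TET2 (ENSG00000168769, chr4:105145875-105279816), which has no CXXC domain of its own, was at 51.7, 47.3 and 47.4 CPM with NC, at 46.2, 51.4 and 45.8 with sh1, and at 18.8, 24.2 and 27.2 with sh4. NC and sh1 overlapped almost completely, and the sh4 libraries stood apart. TET2 changed by -0.03 with sh1 (SE 0.12, 95% interval -0.30 to 0.24) and -1.06 with sh4 (SE 0.12, adjusted p = 4.23e-05), and without sh4 replicate 1 the latter was -0.92, under 2-fold. Neural lists were lower in summed level under both labels, while TET2 fell with sh4 alone. The summed level of 8 neural progenitor genes was 1120 to 1300 CPM with NC, 507 to 590 with sh1 and 184 to 288 with sh4, and 6 of the 8 fell with sh1 and 7 with sh4. The eighth, PROM1, rose with sh4 (26.8 ± 1.61 CPM with NC, 23.3 ± 6.26 with sh1 and 61.6 ± 10.4 with sh4, log2 fold change 1.20, adjusted p = 0.000293). The summed level of 10 neuronal genes was 3100 to 3360, 1200 to 1670 and 219 to 882 CPM, with 4 lower under sh1 and 9 under sh4. Choroid plexus and mesenchyme genes went the other way: all 6 of 6 on each list rose under both labels, from summed levels of 70.5 to 194 CPM to 864 to 1960 with sh1 and 4090 to 8980 with sh4 for choroid plexus, and from 2900 to 4320 to 20500 to 22900 and 39500 to 48500 for mesenchyme. Beside these counts, 25.1% of all organoid genes rose and 21.6% fell with sh1, and 34.5% rose and 33.4% fell with sh4. No gene of these 4 lists was at 0 in all organoid libraries. The 10 most abundant genes took 5.38 to 5.81% of counts with NC, 6.73 to 7.41% with sh1 and 11.8 to 14.4% with sh4. The part of cell make-up in the TET, DNMT3A, DNMT1 and UHRF1 differences was not tested.

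**Figure D2:**
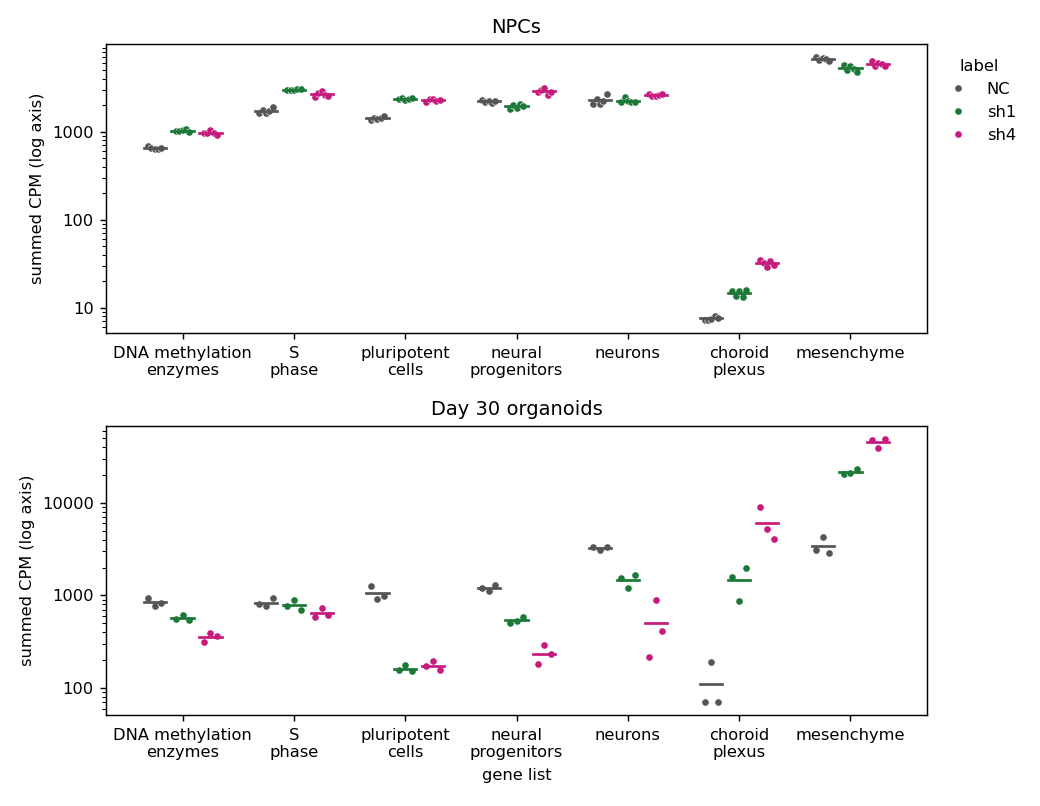
Summed CPM (log axis) of the listed DNA methylation enzymes and of 6 marker lists in each NPC library (upper) and each day 30 organoid library (lower), with a bar at the group mean. The NPC sums of the progenitor, neuron and mesenchyme lists are mostly NES, MAP2 and COL3A1, and that of choroid plexus with sh4 is mostly AQP1. In organoids the enzymes and the pluripotent, progenitor and neuron lists are lower in sh1 and sh4 than in NC, and the choroid plexus and mesenchyme lists are higher; in NPCs the enzymes, S phase, pluripotent and choroid plexus lists are higher in sh1 and sh4, the progenitor list is lower in sh1 and higher in sh4, the neuron list overlaps NC, and the mesenchyme list is lower in sh1 and overlaps NC in sh4.

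The libraries labelled sh1 and sh4 differed from each other in 6 of the 7 tested members, beside 49.9% of all genes, and 2 of these differences were called, beside 19% of all genes. TET1 was 2.60-fold and TET2 2.04-fold higher with sh1 than with sh4 (log2 differences 1.38 and 1.03, adjusted p = 9.66e-05 and 0.000226). TET3 (0.68), UHRF1 (0.73), DNMT3A (0.63) and DNMT1 (0.41) were higher with sh1 too, with adjusted p from 0.000107 for TET3 to 0.0104 for UHRF1. DNMT3B did not differ past the test, at a log2 difference of 0.17 (95% interval -0.25 to 0.59, adjusted p = 0.464). The TET2 difference was 0.98 without sh1 replicate 2, just under 2-fold.

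In the NPCs the members went mostly the other way. TET1 was 2.12-fold higher with sh1 and 1.92-fold higher with sh4, DNMT3B 1.71-fold and 2.06-fold higher, and DNMT1 and UHRF1 1.25-fold to 1.45-fold higher. TET2 was slightly lower with both hairpins. Of the 6 listed members 5 rose with sh1, beside 50.1% of listed genes, and 1 fell, beside 49.2%. DNMT3L and TET1 were called higher, beside 6.31% of listed genes. With sh4 4 rose, beside 44%, 1 fell, beside 44.1%, and 1 did not pass, where 88% of listed genes passed. DNMT3B was called higher with sh4, beside 6.55%. So the number of members past the test is near what the table gives for any listed gene. Their median log2 fold change was 0.66 with sh1 and 0.51 with sh4, against 0.11 and 0.031 over all listed genes. The 5 NC libraries serve both comparisons.

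**Figure D3:**
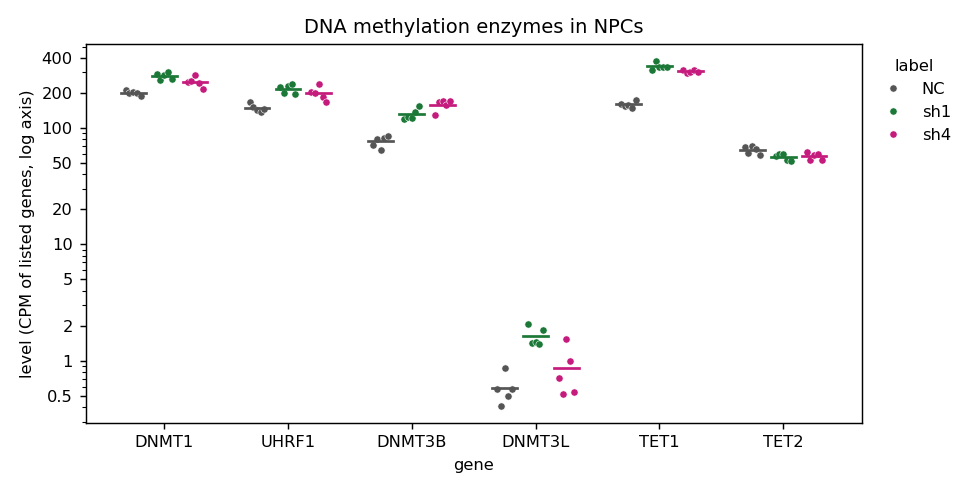
Level of the 6 listed members in each NPC library (CPM of listed genes, log axis), with NC, sh1 and sh4 as grey, green and magenta points and a bar at the group mean. TET1 is at 148 to 173 CPM with NC and at 298 to 375 CPM in the sh1 and sh4 libraries, and DNMT3L is the lowest member throughout, at 2.08 CPM or less.

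DNMT1 was at 214, 200, 204, 198 and 187 CPM in the NPCs with NC, at 291, 260, 287, 301 and 264 with sh1, and at 248, 255, 286, 244 and 218 with sh4. All sh1 and sh4 libraries were above the highest NC library. DNMT1 rose by 0.48 with sh1 (SE 0.062, adjusted p = 7.39e-07) and by 0.32 with sh4 (SE 0.062, adjusted p = 9.91e-05) on the log2 scale. UHRF1 was at 168, 151, 142, 138 and 146 CPM with NC, at 223, 198, 230, 237 and 196 with sh1, and at 204, 200, 240, 185 and 167 with sh4. The lowest sh4 library lay just below the highest NC library, and there was no overlap for sh1. UHRF1 rose by 0.54 with sh1 (SE 0.081, adjusted p = 5.45e-06) and by 0.42 with sh4 (SE 0.081, adjusted p = 0.000102). Of the 14 listed S phase genes 14 rose with sh1, beside 50.1% of all listed genes, and 13 with sh4, beside 44%. Their median log2 fold changes were 0.86 and 0.62, with a summed level of 1610 to 1890 CPM with NC, 2940 to 3090 with sh1 and 2490 to 2930 with sh4. Their part in the rise of DNMT1 and UHRF1 was not tested.

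DNMT3B was at 70.8, 80.5, 65.2, 82.0 and 85.8 CPM in the NPCs with NC, at 120, 125, 121, 137 and 154 with sh1, and at 130, 166, 169, 157 and 172 with sh4. NC overlapped neither hairpin. DNMT3B changed by 0.77 with sh1 (SE 0.087, adjusted p = 1.36e-07) and 1.05 with sh4 (SE 0.087, adjusted p = 1.89e-09), and the latter was 0.99 if NC replicate 3 was left out and 0.90 if library size alone set the scale. Pluripotent markers again moved mostly in the same direction as DNMT3B, with 10 of 11 higher and 1 lower under each hairpin. Of all listed genes 50.1% rose with sh1 and 44% with sh4. The summed level of these markers was 1370 to 1490 CPM with NC, 2300 to 2390 with sh1 and 2200 to 2340 with sh4. The marker that was lower was POU5F1, at 356 ± 79.8 CPM with NC, 100 ± 11.7 with sh1 and 136 ± 12.7 with sh4, while NANOG was at 0.975 ± 0.370, 7.30 ± 0.746 and 21.9 ± 4.13 CPM. The part of such cells in the DNMT3B values was not tested.

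DNMT3L, the inactive cofactor, gave 11, 8, 12, 9 and 11 counts with NC, 31, 26, 26, 27 and 36 with sh1, and 13, 10, 30, 19 and 10 with sh4. The sh1 libraries were all above NC, and the sh4 libraries overlapped both groups, with sh4 replicate 3 far above the rest of its group. DNMT3L changed by 1.5 with sh1 (SE 0.28, adjusted p = 6.27e-05) and 0.60 with sh4 (SE 0.31, adjusted p = 0.0766). Without sh4 replicate 3 the sh4 value was 0.28 (adjusted p = 0.352), the lowest over the libraries left out in turn. It passed the test without NC replicate 3 (0.75, adjusted p = 0.0399), sh4 replicate 2 (0.74, adjusted p = 0.0318) or sh4 replicate 5 (0.73, adjusted p = 0.0362). At a mean of 0.586 to 1.64 CPM per group, DNMT3L is close to the limit of what the depth resolves.

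TET1 was at 162, 155, 159, 148 and 173 CPM in the NPCs with NC, at 317, 375, 335, 333 and 333 with sh1, and at 318, 298, 301, 317 and 300 with sh4. The lowest knockdown library was well above the highest NC library. TET1 changed by 1.09 with sh1 (SE 0.05, adjusted p = 5.79e-13) and 0.94 with sh4 (SE 0.05, adjusted p = 2.85e-12), and with library size alone it was 0.95 and 0.80, so that neither reached 2-fold. TET2 was at 69.1, 61.4, 69.5, 66.0 and 59.0 CPM with NC, at 57.4, 59.3, 59.7, 52.8 and 51.9 with sh1, and at 62.3, 52.9, 58.3, 60.1 and 53.5 with sh4. The groups overlapped, and the difference was small: -0.21 with sh1 (SE 0.063, adjusted p = 0.00415) and -0.18 with sh4 (SE 0.063, adjusted p = 0.0127).

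Counts for markers of other cell types in the NPCs stand beside these shares of all listed genes. With sh1 50.1% rose and 49.2% fell, and with sh4 44% rose and 44.1% fell. The summed level of 5 choroid plexus genes was 7.25 to 8.12 CPM with NC, 13.3 to 16.1 with sh1 and 29.2 to 34.4 with sh4. Of these, 3 of 4 tested rose with each hairpin, while 1 fell with sh1 and 1 did not pass with sh4. AQP1, at 2.52, 4.12 and 22.2 CPM with NC, sh1 and sh4, made up most of the sh4 sum. TTR stayed near 0, at 0.135, 0.0112 and 0.0429 CPM. That of 6 neural progenitor genes was 2120 to 2280 CPM with NC, 1790 to 2060 with sh1 and 2630 to 3170 with sh4, where 4 of 5 tested rose and 1 fell with each hairpin. Of 7 neuronal genes 6 fell and 1 rose with sh1, and 3 fell and 1 rose with sh4, while their summed level overlapped between NC (2080 to 2650 CPM), sh1 (2160 to 2460) and sh4 (2540 to 2670). Of 4 mesenchyme genes 3 rose and 1 fell with each hairpin, and their summed level was 6340 to 7030, 4730 to 5750 and 5540 to 6350 CPM. Single genes made up most of the progenitor, neuron and mesenchyme sums. NES was at 2150, 1770 and 2690 CPM with NC, sh1 and sh4. MAP2 was at 1840, 2030 and 2180 CPM, and COL3A1 at 6160, 4230 and 4510 CPM. The part of these cell types in the members' NPC values was not tested.

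Between the NPC libraries with sh1 and those with sh4, 3 of 6 members differed, beside 27.6% of listed genes, and 0 were called in edgeR (0 at an unadjusted p with the same fold and 0 in DESeq2 too), beside 4.6% of listed genes. DNMT3L (0.90, adjusted p = 0.0115) and TET1 (0.14, adjusted p = 0.0363) were higher with sh1, and DNMT3B (-0.27, adjusted p = 0.0209) was higher with sh4. DNMT1 was at the threshold (0.16, adjusted p = 0.0535): it passed with RLE factors (adjusted p = 0.0462), in DESeq2 (0.0373), with no filter on low counts (0.0499) or a minimum count of 30 (0.0492), and without NC replicate 1 or 5, sh1 replicate 2 or 5 or sh4 replicate 3 (0.00767 to 0.0481). UHRF1 (95% interval -0.05 to 0.29) and TET2 (-0.16 to 0.10) did not pass. Without sh4 replicate 3 the DNMT3L difference was 1.22 and was called. The DNMT3B difference lost the test without sh1 replicate 1, 2 or 3 or sh4 replicate 3 or 5 (adjusted p up to 0.057), and that of TET1 without sh1 replicate 2, 3 or 4 or sh4 replicate 2, 3 or 5 (up to 0.11). A replicate block gave adjusted p = 0.00176 for DNMT3B, 0.00712 for DNMT3L, 0.015 for DNMT1 and 0.0438 for TET1 (edgeR). UHRF1 and TET2 did not pass there either. Without that block these differences between hairpins are at the edge of what 5 libraries resolve.

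**Figure D4:**
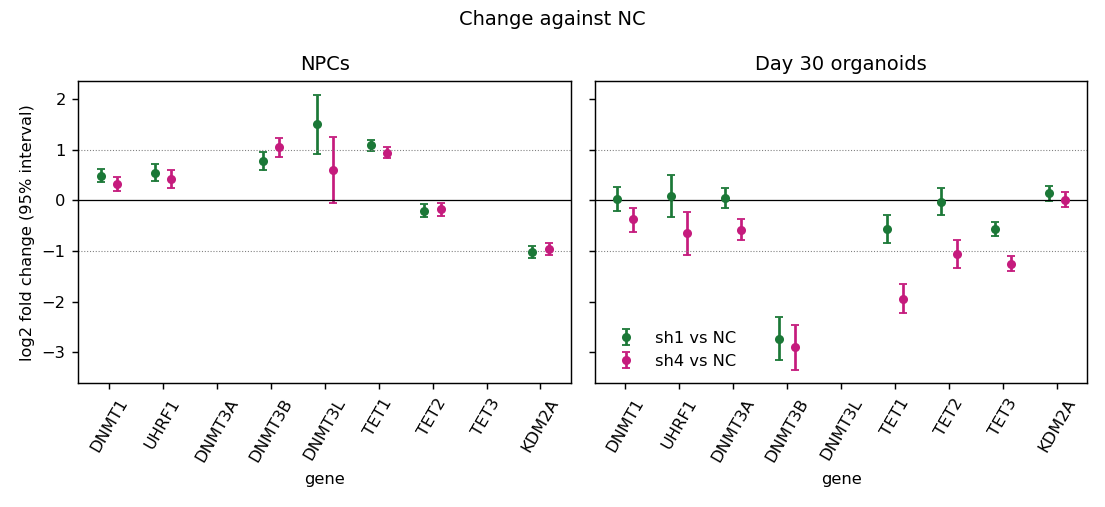
Log2 fold change against NC of each tested member and of KDM2A in NPCs (left) and day 30 organoids (right), with its 95% interval, for sh1 in green and sh4 in magenta, and dotted lines at 2-fold. DNMT1, UHRF1, DNMT3B and TET1 lie above 0 in NPCs, and DNMT3B and TET1 far below 0 in organoids; DNMT3A and TET3 have no NPC value here and DNMT3L no organoid value.

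The change under the hairpins was then set against the system, as the mean of sh1 and sh4 against NC in NPCs minus the same in organoids. All 6 members listed in both tables differed, beside 78.6% of 10020 genes, and 3 were called, beside 34.4%. The difference was 3.74 on the log2 scale for DNMT3B (SE 0.16, adjusted p = 1.3e-15) and 2.28 for TET1 (SE 0.099, adjusted p = 1.1e-15), and smaller for UHRF1 (0.78), DNMT1 (0.59) and TET2 (0.36). DNMT3L was the third one called, from 5 organoid counts. Averaging hides unlike labels: organoid TET2 changed by -0.03 with sh1 and -1.06 with sh4, against -0.21 and -0.18 in NPCs. The contrast was not run for each label alone. The sources do not tie the NPC and organoid tables to shared cultures, and system, table and KDM2A loss cannot be told apart here.

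Control libraries of both systems were put on one scale to compare levels before any knockdown. DNMT3B was the member that differed most among those with more than a few counts: 78.3 ± 8.40 CPM in NC NPCs and 398 ± 113 in NC organoids, with a log2 difference of 2.35 (SE 0.13, adjusted p = 2.59e-14). UHRF1 was lower in organoids, at 152 ± 12.1 against 89.9 ± 8.41 CPM (-0.76, adjusted p = 1.72e-05). DNMT3L was lower as well (-1.98, adjusted p = 0.00522), from 51 counts in all against 5, so its fold depends on the handling of low counts. DNMT1 (-0.17, adjusted p = 0.0732), TET1 (-0.11, adjusted p = 0.229) and TET2 (0.18, adjusted p = 0.0652) did not pass, though TET2 did with RLE factors (0.21, adjusted p = 0.0323) and in DESeq2 (adjusted p = 0.0269). With 3 of 6 past the test and 2 called, the members compare with 79.5% and 32.2% of all genes. Of the 11 pluripotent markers 6 were higher and 1 lower in NC organoids, and 4 did not pass, where 79.5% of all genes passed in either direction. The count past the test thus does not set these markers apart. Their median log2 difference was 0.93, against -0.034 over all genes, and its relation to the DNMT3B level was not tested. Of the progenitor genes PAX6 was 15.2-fold higher in NC organoids than in NC NPCs, where it was at 17.0 ± 1.53 CPM, while NES was at 2150 ± 66.8 CPM in these NPCs.

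Levels per kilobase of annotated exon allow genes to be set side by side. In NC organoids DNMT3B led at 56.0 ± 15.8 CPM per kb, followed by DNMT3A at 13.1 ± 0.523, DNMT1 at 12.1 ± 0.453, UHRF1 at 11.4 ± 1.14, TET1 at 10.6 ± 0.310, TET3 at 8.12 ± 0.436, TET2 at 2.96 ± 0.152 and DNMT3L at 0.0491 ± 0.0320. DNMT1 and UHRF1, and UHRF1 and TET1, lay within each other's spread. In sh4 organoids DNMT1 (9.27 ± 1.28) and DNMT3A (8.78 ± 0.779) came first, DNMT3B (7.49 ± 1.19) and UHRF1 (7.23 ± 2.05) followed within their spread, and TET3 (3.41 ± 0.130), TET1 (2.75 ± 0.397) and TET2 (1.42 ± 0.256) were last. In sh1 organoids DNMT3A (13.6 ± 1.31), DNMT1 (12.3 ± 1.24) and UHRF1 (12.0 ± 2.00) came before DNMT3B (8.46 ± 0.469), TET1 (7.16 ± 1.06), TET3 (5.48 ± 0.226) and TET2 (2.90 ± 0.190). In NC NPCs UHRF1 was highest at 28.9 ± 2.27, before DNMT1 at 20.5 ± 0.985, TET1 at 17.2 ± 0.997 and DNMT3B at 16.6 ± 1.84, which overlapped, TET2 at 3.95 ± 0.283 and DNMT3L at 0.315 ± 0.0936. In sh1 NPCs the order was UHRF1 (42.1 ± 3.67), TET1 (36.5 ± 2.34), DNMT1 (28.6 ± 1.85) and DNMT3B (28.4 ± 3.10), and in sh4 NPCs UHRF1 (38.7 ± 5.26), DNMT3B (34.3 ± 3.67), TET1 (33.0 ± 1.05) and DNMT1 (25.5 ± 2.52). Exon length is that of all annotated exons joined, so a gene with long rarely used exons is given too low a level.

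The balance of de novo enzymes turned over in the organoids. Per length, DNMT3B stood at 5.37, 3.37 and 4.01 times DNMT3A in NC libraries, at 0.586, 0.593 and 0.701 times in sh1 libraries, and at 0.918, 0.980 and 0.680 times in sh4 libraries. It was thus the more abundant one in each NC library and the less abundant one in each other library. Against DNMT1 the ratio was 4.64 ± 1.35 with NC, 0.691 ± 0.0882 with sh1 and 0.810 ± 0.0948 with sh4. TET1 made up 48.9 ± 1.27% of the summed TET level with NC, 45.9 ± 3.16% with sh1 and 36.2 ± 1.67% with sh4, TET2 13.7 ± 0.297%, 18.7 ± 1.51% and 18.6 ± 1.66%, and TET3 37.5 ± 1.34%, 35.4 ± 2.32% and 45.2 ± 3.31%. Per length TET3 therefore passed TET1 as the leading TET transcript in the sh4 libraries. In plain CPM the NC levels were alike, at 98.3 ± 2.88 for TET1 and 99.7 ± 5.36 for TET3, so which led with NC depends on the length used. The ratio of TET1 to TET3 per length was 0.702 to 0.883 with sh4 against 1.23 to 1.39 with NC. With 3 libraries a group an exact permutation test, two-sided, cannot go below p = 0.1, which the DNMT3B ratios reached against NC for both labels and this TET ratio for sh4 (adjusted p = 0.142 over 33 tests).

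In the NPCs the ratio of TET1 to TET2 per length was 4.38 ± 0.501 with NC, 10.7 ± 0.773 with sh1 and 9.51 ± 0.443 with sh4. Groups did not overlap, and the exact permutation p of 0.00794 is the smallest that 5 against 5 libraries allow (adjusted p = 0.0524 over the same 33 tests, two-sided). The ratio of UHRF1 to DNMT1 was 1.41 ± 0.0828 with NC, 1.47 ± 0.0434 with sh1 and 1.51 ± 0.0674 with sh4, and these overlapped. DNMT3B against DNMT1 was 0.815 ± 0.124 with NC, 0.996 ± 0.145 with sh1 and 1.35 ± 0.206 with sh4, and only sh4 stood clear of NC.

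**Figure D5:**
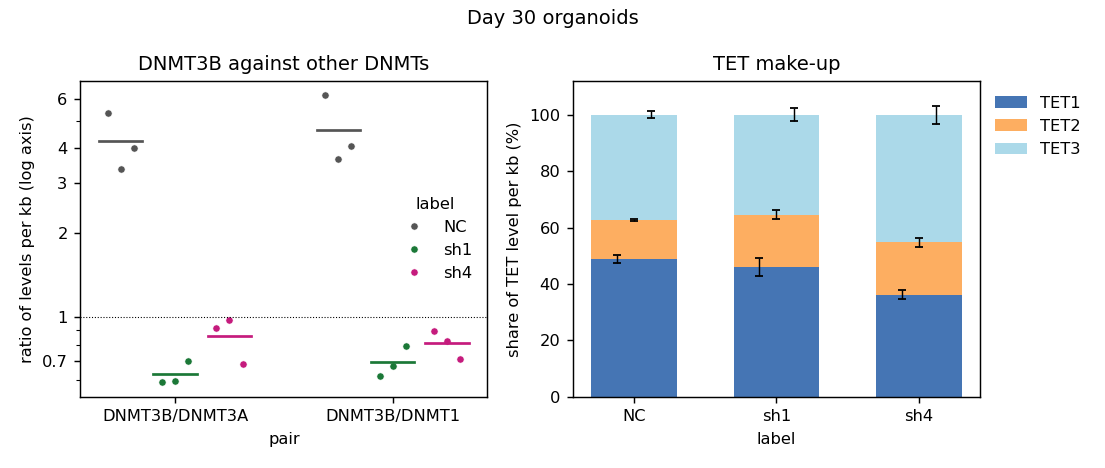
Left, the ratio of DNMT3B to DNMT3A and to DNMT1 per kb of exon in each day 30 organoid library (log axis, bar at the mean, dotted line at 1). Right, the mean share of TET1, TET2 and TET3 in the summed TET level per kb (%, error bars SD, n = 3 libraries per label); NC lies above 3 and sh1 and sh4 below 1 in the left panel, and TET1 is 48.9% with NC and 36.2% with sh4 in the right panel.

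For the pathway lists below, the counts stand beside these shares of all tested genes: among NPC genes 50.1% rose and 49.2% fell with sh1, and 44% rose and 44.1% fell with sh4, and among organoid genes 25.1% rose and 21.6% fell with sh1, and 34.5% rose and 33.4% fell with sh4. No list as a whole was tested. Among partners of maintenance methylation, all 6 tested in the NPCs rose with sh1 and with sh4 (median log2 fold changes 0.81 and 0.63), among them PCLAF, a PCNA-binding factor (44.0 ± 5.89 CPM with NC, 100 ± 6.49 with sh1 and 90.5 ± 9.03 with sh4), and CDCA7, which works with the remodeller HELLS (78.9 ± 13.5, 166 ± 17.0 and 157 ± 17.1 CPM). Of 8 tested in the organoids 3 fell with sh1 and 4 with sh4, and none rose in edgeR (1 at an unadjusted p under 0.05, PCLAF with sh1, 0.32). HELLS was at 49.3 ± 3.85 CPM with NC, 23.6 ± 2.34 with sh1 and 17.9 ± 6.63 with sh4, and CDCA7L, a relative of CDCA7, at 52.8 ± 4.30, 21.2 ± 2.99 and 14.5 ± 3.67 CPM. PCNA, the replication clamp, did not pass in organoids (log2 fold changes -0.02 and -0.21).

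Readers of methylated CpG moved in both directions. In the organoids 4 of 9 rose and 3 fell with sh1, and 5 rose and 3 fell with sh4 (median log2 fold changes 0.10 and 0.18). ZBTB38 rose there from 25.3 ± 0.813 CPM to 47.0 ± 6.02 and 43.9 ± 7.02, and fell in the NPCs from 124 ± 8.39 to 70.0 ± 3.23 and 73.1 ± 6.89. In the NPCs 1 of 4 tested readers rose and 3 fell with each hairpin.

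Of 7 other CXXC proteins, which bind unmethylated CpG like KDM2A, 3 fell in organoids with sh1 (median log2 fold change -0.19), beside 21.6% of all genes, and 4 did not pass. With sh4 6 of the 7 fell (median -1.17), beside 33.4%. With neither label did one rise in edgeR (1 at an unadjusted p under 0.05, CXXC1 with sh1, 0.18). CXXC4 was at 70.0 ± 6.72 CPM with NC, 30.4 ± 2.82 with sh1 and 16.4 ± 2.63 with sh4, and KDM2B, the paralogue of KDM2A, at 80.9 ± 9.59, 52.1 ± 4.39 and 31.2 ± 4.95 CPM. In the NPCs 2 of 4 rose and 2 fell with sh1, and 1 rose and 2 fell with sh4. KMT2B fell there from 114 ± 13.4 to 77.7 ± 5.84 and 76.4 ± 2.26 CPM, and CXXC5 changed by -0.57 and -0.31 on the log2 scale.

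Factors that recruit or oppose DNA methylation included low genes with large folds. In the NPCs 6 of 12 rose and 6 fell with sh1, and 5 rose and 5 fell with sh4. DPPA3, which keeps UHRF1 from chromatin, gave 4 counts over the 5 NC libraries, 88 over the sh1 and 94 over the sh4 libraries (0.0463 ± 0.0273, 0.964 ± 0.202 and 0.993 ± 0.257 CPM). ZFP57, which guards imprints, gave 8, 78 and 129 counts. Neither exceeded 2.14 CPM in any NPC library, and DPPA3 has processed copies that may share its reads. In the organoids 1 of 12 tested rose and 2 fell with sh1, and 1 rose and 10 fell with sh4, among them ZNF445 (-0.35 with sh1 and -0.83 with sh4) and TRIM28 (-0.21 and -0.56), the corepressor of zinc finger repressors.

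Of 11 tested genes that remove oxidised methylcytosine or repair the gap, 7 rose and 3 fell in the NPCs with sh1, and 8 rose and 3 fell with sh4. Of 13 tested in the organoids 3 rose and 6 fell with each label. GADD45G fell in both, from 23.7 ± 2.80 to 6.80 ± 1.60 and 9.62 ± 1.75 CPM in NPCs and from 23.0 ± 1.35 to 11.3 ± 1.62 and 14.9 ± 4.75 in organoids. SMUG1 fell in NPCs (-0.68 and -0.73) and GADD45A in organoids (-0.57 and -0.89). The glycosylase TDG, which acts directly after the TET enzymes, is given as a gene chosen after its values were seen: it rose in NPCs (0.64 and 0.65) and did not pass in organoids (-0.06 and -0.15).

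Among genes that supply the methyl donor S-adenosylmethionine, 8 of 13 rose and 5 fell with sh1 in the NPCs, and 6 rose and 5 fell with sh4. BHMT went from 2.55 ± 0.647 to 0.425 ± 0.212 and 0.263 ± 0.133 CPM, and MAT1A from 2.09 ± 0.392 to 0.471 ± 0.323 and 0.437 ± 0.254. MAT2A, the main S-adenosylmethionine synthase outside liver, was chosen after its values were seen and fell from 1820 ± 116 CPM to 466 ± 25.3 and 450 ± 27.4 (log2 fold changes -1.96 and -2.01, adjusted p = 9.26e-16 and 3.69e-16). In the organoids 4 of 15 rose and 3 fell with sh1, and 4 rose and 5 fell with sh4. MAT1A rose there from 1.53 ± 1.12 to 9.91 ± 6.22 and 51.4 ± 30.5 CPM, and NNMT, which consumes the methyl donor, from 0.622 ± 0.342 to 2.16 ± 1.41 and 22.2 ± 2.03.

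Enzymes that set the cofactors of the TET reaction or modify TET proteins were mostly moderate in change. In the NPCs 6 of 10 rose and 4 fell with each hairpin, led by FH (85.7 ± 6.67, 150 ± 9.14 and 148 ± 4.32 CPM) and IDH2 (103 ± 16.3, 170 ± 12.6 and 173 ± 8.11 CPM). In the organoids 3 of 12 rose and 2 fell with sh1, and 6 rose and 2 fell with sh4. D2HGDH, which clears a TET inhibitor, rose from 8.24 ± 0.784 to 18.6 ± 2.50 and 22.8 ± 0.171 CPM, and OGDH from 68.6 ± 4.47 to 97.7 ± 6.96 and 127 ± 2.63.

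Of 14 germline genes that promoter methylation is known to silence, all 14 were listed for the organoids and only 4 for the NPCs. In the organoids 0 passed the filter on low counts, and in the NPCs 2 of the 4 listed did. HORMAD1, a protein of meiotic chromosomes, rose in the NPCs from 1.11 ± 0.222 CPM (NC) to 9.57 ± 0.766 (sh1) and 10.8 ± 0.859 (sh4) (log2 fold changes 3.09 and 3.25, adjusted p = 1.09e-13 and 3.01e-14), and over all 9 organoid libraries it gave 1 count. TAF7L, the other, changed by -1.15 with sh1 and by -0.43 with sh4, the latter short of the test (adjusted p = 0.000332 and 0.0843). The listed genes short of the filter were DDX4, with 32, 5 and 3 counts over the NC, sh1 and sh4 libraries, and BRDT, with 0, 13 and 3. As methylation itself was not measured, no link between these genes and the enzymes was tested.

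Patterns over libraries are given as descriptions, since they share groups, scaling and table. DNMT1 and UHRF1 had a Pearson r of 0.97 in log2 CPM over the 15 NPC libraries and of 0.97 over the 9 organoid libraries. In the organoids TET1 went with TET3 (0.97) and TET2 (0.95), TET2 with DNMT3A (0.98), and DNMT3B less with DNMT1 (0.44) and DNMT3A (0.47). Outside the members, the gene most like DNMT3B in the organoids was the pluripotency gene DPPA4 (0.995), before EPHA2 and C2orf69 (0.992 each). UHRF1 was nearest to STMN1 (0.990), KIF15 (0.986) and the replication helicase gene MCM2 (0.985), TET1 to ARRDC3 (0.999), FOXN3 and DCAF7, TET3 to GATAD2B (0.998), TNRC6B and VPS13C, TET2 to SLC16A9 (0.995), RAP2A and TMEM130, DNMT3A to ZFP37 (0.995), ZNF507 and ZMIZ1, and DNMT1 to LRFN3 (0.986), SFPQ and FGD1. In the NPCs the nearest were EPOP (0.980), RFX5 and CHAF1A for DNMT1, EPOP (0.974), LUC7L2 and CHAF1A for UHRF1, EIF4A1 and UAP1 (0.983 each) for DNMT3B, STK26 (0.996), HSD17B7 and FAM3C for TET1, ZNF778 (0.900), MDC1 and EMSY for DNMT3L, and ZBTB18, ANKFY1 (0.951 each) and DCUN1D2 for TET2.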

How the data were processed

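Poly(A)-selected RNA, primed with random hexamers per the labels' protocols, was counted per gene. The authors deposited 1 table of estimated counts per system, made from aligned reads and left unscaled, per the submitters' processing notes and the values: 82.4% of NPC values and 91% of organoid values were whole, and all were rounded here. The submitters' processing notes name the aligner STAR, the counter featureCounts and the build GRCh38.p13; versions, settings and strandedness are not given in the sources used here, so overlapping and antisense genes could not be told apart. Organoid identifiers were matched to symbols (42085 of 61544).

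The design text names DESeq2; here edgeR 4.0.16 (R 4.3.3, limma 3.58.1) was used with filterByExpr (minimum count 10; 9860 NPC and 19704 organoid genes kept), TMM scaling and the quasi-likelihood test, all 3 groups of a system in one fit, 6 groups for contrasts between systems (10104 shared genes, 10020 tested). Calls needed an adjusted p under 0.05 and at least a 2-fold change (log2 of 1), as in the design text. The steps were tested on simulated data in which a small part of the genes changed, at a fixed spread. The NPC table is unlike that, so the simulation does not vouch for scaling there. Ratios of levels were compared with exact permutation tests.

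Named are the members, KDM2A, per list and system up to 2 genes with the largest mean change among those past the test in one direction with both hairpins, and the 3 genes most correlated with each member (mean log2 CPM of at least 3); cell type markers are named beside members, and other genes are said to be chosen later. Some genes this rule names are not reported here. Members and lists were chosen with earlier results of these data known. Alternatives were other scaling, filters, DESeq2 1.42.0, a replicate block, 2-group fits and leaving out each library. Gene positions and exon lengths are from GENCODE 29, promoters from RefSeq (7 of 8 members matched; the window nearest the GENCODE 5′ end). No 2 libraries of a group were identical or within sampling noise.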

Additional observations from a re-analysis of the deposited data

Results flagged for a closer look

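Each gene here changed differently in NPCs and organoids by the test of the difference itself (edgeR, mean of sh1 and sh4 against NC, NPC minus organoids, log2). The mean can cover unlike labels, as for organoid TET2, at -0.03 with sh1 and -1.06 with sh4. The difference was 0.59 for DNMT1, 0.78 for UHRF1, 3.74 for DNMT3B, 2.28 for TET1 and 0.36 for TET2. For DNMT3L it was 5.27 with a 95% interval of 2.43 to 8.11, and it rests on 5 organoid counts, so its size depends on how zeros are handled. For KDM2A, the hairpins' target, it was -1.05, since KDM2A was lower with both hairpins in the NPCs and not in the organoids. For scale, 78.6% of all genes tested in both systems differed in this way.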

How the results depend on the processing

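Of 1102 values of members recomputed under alternatives, 1064 kept their direction and side of the threshold, 11 lost and 21 gained the test, and 6 changed sign, 0 of them past the test as reported. None of 496 member values against NC lost the test. The members called in NPCs with sh1 were 2, and 1 with library size alone or a minimum count of 30. With sh4 the 1 called became 0 with library size alone, and 0 to 1 when a library was left out (0 without NC replicate 3). Between NPC sh1 and sh4 leaving out gave 0 to 1 (1 without sh4 replicate 3). In organoids 3 to 4 were called with sh4. Between organoid sh1 and sh4 2 were called, 1 with RLE factors or DESeq2, and 1 to 2 when a library was left out (1 without sh1 replicate 2 or sh4 replicate 1). Between controls 2 were called, and 1 at a minimum count of 30, which removes DNMT3L. With a replicate block it was 3, but that fit compares the levels fitted for replicate 1 of each system. With no fold threshold the counts were 6, 5 and 3 in NPCs (sh1, sh4, sh1 against sh4), 3, 7 and 6 in organoids and 6 between systems.

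Sign changes concerned values near 0: organoid KDM2A with sh4 at -0.27 with library size alone, where sh1 against sh4 came to 0.36, and -0.02 to 0.05 when a library was left out; organoid DNMT1 with sh1 at -0.01 with library size alone and -0.02 to 0.10 when one was left out; DNMT3A (-0.02 to 0.11), UHRF1 (-0.06 to 0.17) and TET2 (-0.08 to 0.01) likewise with sh1. Library size alone moved the median of all genes by -0.137 and -0.144 in NPCs (sh1, sh4) and by -0.273 in organoids with sh4, and the higher share of calls from 34.3% to 23.7%, 36.2% to 26.7% and 56.4% to 43.3%. Between organoid sh1 and sh4 it moved by 0.229 and 41.2% to 57.3%. Restricting organoids to genes in the NPC table left 1649, 3081 and 1619 called genes (3946, 6998 and 3748 before), from fewer genes tested; the cause of other changes was not tested.

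Same-numbered libraries were not treated as pairs in the main tests. Over all tested genes, correlations of their deviations were -0.10 to 0.39 for 15 NPC pairs and -0.16 to 0.04 for 9 organoid pairs. In the NPCs replicate 5 had the highest ratio of DNMT3B to DNMT1 in each group (0.97 with NC, 1.23 with sh1 and 1.67 with sh4). The ratio tests took no account of replicate number. A replicate block took 2 of 51 values past the test, DNMT1 between NPC sh1 and sh4 (0.17, adjusted p = 0.015, edgeR) and DNMT1 between controls (-0.25, adjusted p = 0.041, edgeR). It also took UHRF1 between controls from -0.76 to -1.02 (adjusted p = 1.35e-05, edgeR), past 2-fold, and DNMT3L there from -1.98 to -2.67 (adjusted p = 0.0382, edgeR). The block moved the members called in no other comparison. Between controls, however, the block fit compares the levels fitted for replicate 1 of each system. All its control values, that of DNMT1 included, depend on this reference and are no adjustment for replicate. Depth limits DNMT3L, with 5 counts in all organoids.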
